A study of Rattus norvegicus with 8 samples.

Results

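Solute carriers are membrane proteins that move amino acids, ions, metals, nucleotides, sugars and other small solutes across the plasma membrane and the membranes of organelles. Their genes are named Slc with a family number, and a family usually shares a class of substrate. The genes described here are the rows of the expression table whose symbol starts with Slc and a number, with 1 gene left out, and that reached 1 CPM (reads per 1000000 reads of the library) in at least 4 of the 8 libraries. This rule kept 66 of 371 such genes, among 6849 genes of all kinds at that level and 30240 rows in all. By substrate, 10 of the 66 were counted as amino acid transporters, 10 as metal ion transporters, 15 as mitochondrial carriers, 6 as nucleotide sugar transporters, 9 as inorganic ion transporters and 16 as transporters of other organic solutes. Of the 305 genes that missed the level, 120 had 0 reads in every library and 185 had at least 1 read.

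Messenger RNA was measured by 3′ end sequencing in SF2 cells, a dental epithelial line. It derives from the rat mandibular incisor, from its cervical loop. AmeloD, the product of Ascl5, is a transcription factor of the basic helix-loop-helix class. Cells with the genotype label AmeloD-overexpressing were compared with cells labelled Control. Each genotype was combined with the plasmids pCMV6 and pCMV6.ODAM and with conditions N and TGF, whose dose and duration the labels do not state. Odam is the gene of odontogenic ameloblast-associated protein, which ameloblasts secrete. Each of the 8 combinations had 1 library. Whether the cells of a genotype are 1 clone is not stated either. Values are listed with AmeloD before Control and, within a genotype, as pCMV6 with N, pCMV6.ODAM with N, pCMV6.ODAM with TGF and pCMV6 with TGF.

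Dental epithelium handles large flows of solutes. Ameloblasts, the cells that lay down enamel, move calcium, phosphate, bicarbonate and other ions between blood and enamel through carriers of the SLC4, SLC24, SLC26 and SLC34 families, among others. Any growing cell also needs amino acid carriers in its surface, zinc, copper and iron carriers, carriers of the inner mitochondrial membrane (the SLC25 family), and carriers that bring nucleotide sugars into the Golgi and the endoplasmic reticulum (the SLC35 family).

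The libraries held 10568146 to 17775226 reads, of which 1662973 to 2854134 lay on rows of the table, and 3680 to 5702 of these belonged to the 66 solute carrier genes. Ascl5 was at 0 reads in every library, under a gene model without untranslated ends, so the 3′ reads did not check the AmeloD label. Odam had 31 reads with pCMV6.ODAM and 1 with pCMV6. The 31 were 1 and 3 in the AmeloD libraries and 10 and 17 in the Control libraries (N before TGF). In AmeloD the check of the plasmid label thus rests on few reads. Of 6 markers of dental epithelium 4 were measured (Krt5, Krt17, Cdh1 and Epcam). All 4 were higher in AmeloD by the limma test described below, beside 9.07% of all genes tested. Their summed levels were 731 to 840 CPM in AmeloD against 499 to 641 CPM in Control. Of 6 ameloblast markers, 6 (Amelx, Ambn, Enam, Amtn, Klk4 and Mmp20) were at 0 reads. Markers of mesenchyme and odontoblasts summed to at most 0.0742 CPM in AmeloD and 0.325 CPM in Control libraries, with 3 of 6 at 0, and those of endothelium to at most 0.0924 and 0.0677 CPM, with 1 of 3 at 0. The leukocyte list summed to 2.77 to 3.78 CPM in AmeloD and 0.814 to 1.56 CPM in Control, nearly all of it from Cd68, a lysosomal protein gene, while Csf1r was at 0. The part of these marker differences in the results below was not tested, and in bulk RNA fewer cells of a type and less RNA per cell cannot be told apart.

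Solute carrier mRNA made up an overlapping share of the table in the genotypes. The 66 genes held 0.200% to 0.237% of the table's reads, and their summed level was 365 ± 30.4 CPM in AmeloD (SD, n = 4 libraries that differ in plasmid and TGF label) and 344 ± 20.04 CPM in Control (SD, n = 4). Reads were uneven between genes, since a single glutamine carrier, Slc1a5, took 7036 reads while the fewest on any member were 99, for Slc35c1, the GDP-fucose carrier of the Golgi. In all, 41 members reached 1 CPM in every library, 19 in 5 to 7 libraries and 6 in exactly 4. Just inside the rule, Slc12a4 reached it in 4 libraries, the lowest of these at 1.38 CPM, and just outside it Slc7a6 reached it in 3, the highest of these at 2.08 CPM. Of the 66, 0 reached that level through libraries of 1 genotype alone. A total of 27 members had under 200 reads in the 8 libraries together, and 21 had 400 or more.

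The comparison of AmeloD with Control addressed which carriers differed between cells labelled AmeloD-overexpressing and cells labelled Control. An effect of AmeloD and other differences between these cell populations cannot be told apart in this design. In AmeloD, 4 members rose and 2 fell. The risers were Slc33a1, which brings acetyl-CoA into the endoplasmic reticulum, Slc48a1, a heme transporter of endosomes and lysosomes, Slc25a39, which imports glutathione into mitochondria, and Slc35b1, an ATP and ADP exchanger of the endoplasmic reticulum that belongs by sequence to the nucleotide sugar transporter family. The genes that fell were Slc25a24, a calcium-regulated mitochondrial carrier of ATP-magnesium and phosphate, and Slc12a4, a potassium-chloride cotransporter of the plasma membrane. Changes were tested with limma on log2(CPM + 1) with genotype, plasmid and TGF label as additive terms, two-sided, and are given as log2 differences ± SE on that scale, which understates the change of genes near 1 CPM. These 6 calls are 9.09% of the 66 members, beside 13.8% of all 6849 genes tested. By direction, 6.06% of members rose and 3.03% fell, beside 9.07% and 4.75% of all genes. At an unadjusted p under 0.05 there were 14 members (21.2%), beside 27% of all genes. The members' median change was 0.00, with 33 above and 33 below 0, and that of all genes was 0.05.

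**Figure D1:**
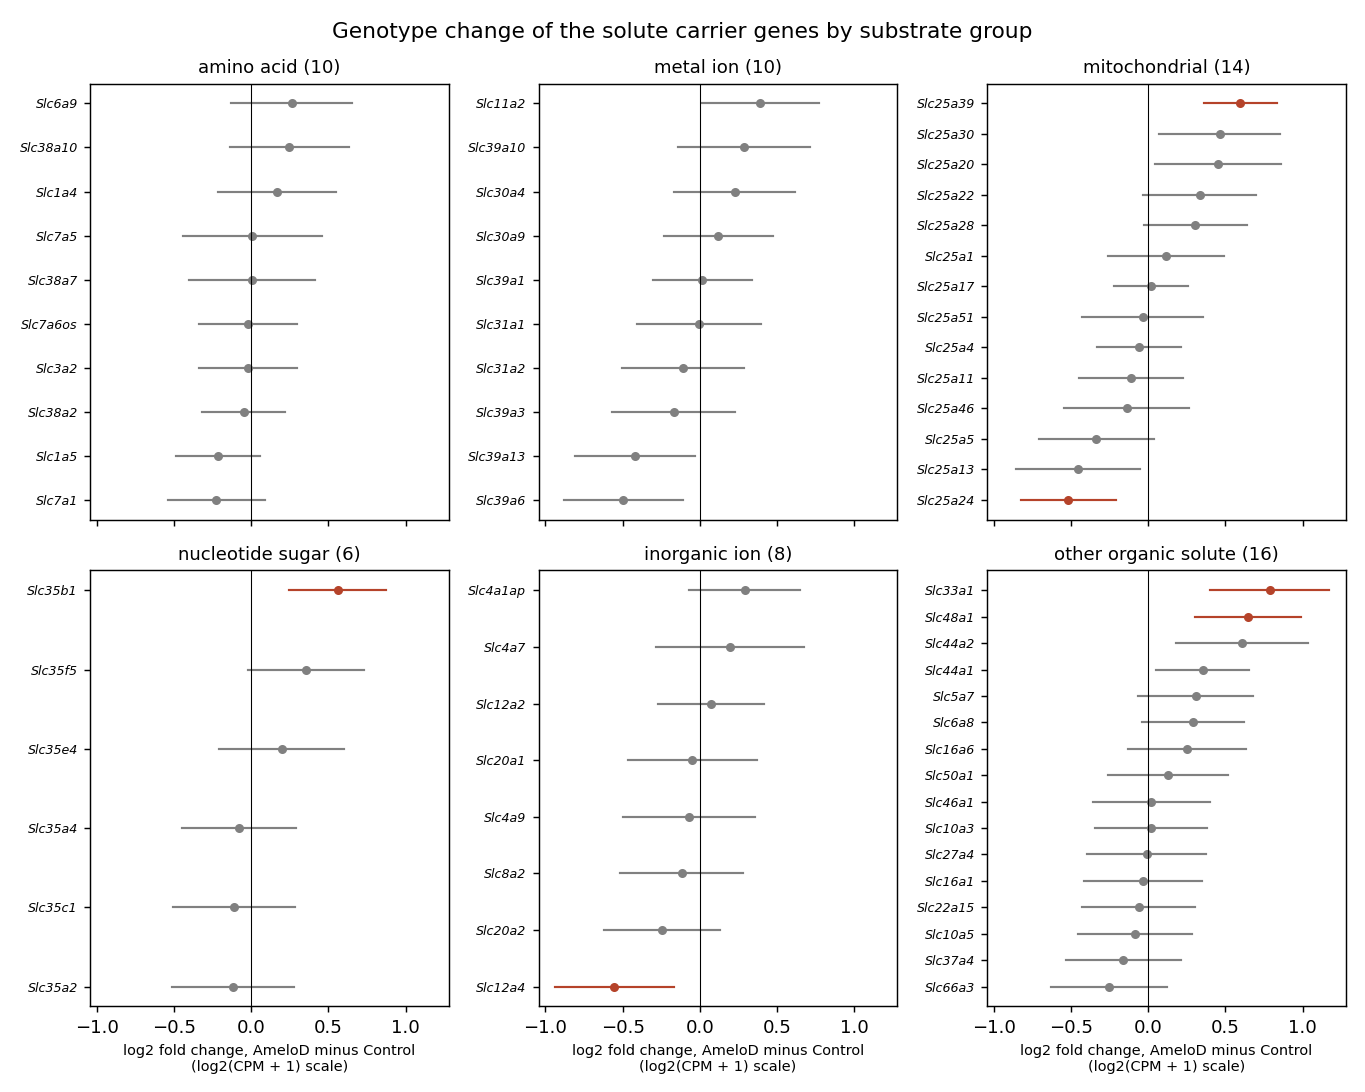
The log2 difference of AmeloD minus Control on the log2(CPM + 1) scale (horizontal) for 64 of the 66 solute carrier genes, with 1 panel per substrate group, the number of genes drawn in brackets, horizontal lines for 95% intervals and red points for the 6 genes past the limma test at an adjusted p under 0.05. The amino acid and metal ion panels hold 0 red points, and the red points run from -0.55 for Slc12a4 to 0.79 for Slc33a1.

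Slc33a1 (ENSRNOG00000010023, chromosome 2, 148415666 to 148437758, minus strand, in mRatBN7.2) showed the highest rise among the members. Its levels were 1.99, 3.63, 2.9996 and 2.40 CPM in AmeloD and 1.25, 0.948, 1.17 and 1.24 CPM in Control. Every AmeloD library was above every Control library, and the Control values lay close together. The means were 2.76 ± 0.718 CPM and 1.15 ± 0.140 CPM (SD, n = 4 each), a log2 difference of 0.79 ± 0.19 with an adjusted p of 0.00503 by limma. Of the members, 14 overlap another row of the table, 12 of them on the opposite strand, and among the 6 called genes this holds for Slc33a1 alone. The gene held 211 reads, and its first bases overlap the start of Gmps, the GMP synthetase gene, on the opposite strand. Gmps did not pass the test (633 reads, 0.08 ± 0.16, adjusted p = 0.800), and the labels do not state whether the counting used strand. The call of Slc33a1 stood without any single library, with adjusted p-values up to 0.0412. In the 4 pCMV6 libraries alone the difference was 0.51 with an adjusted p of 0.238, and in the 4 TGF libraries alone the adjusted p was 0.0992.

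Slc48a1 (ENSRNOG00000053196, chromosome 7, 128915195 to 128923024) stood at 5.87, 6.08, 6.29 and 4.34 CPM in AmeloD and at 3.32, 2.91, 3.51 and 3.15 CPM in Control. The genotypes did not overlap, and AmeloD pCMV6 TGF was the lowest of its group. The difference between 5.65 ± 0.886 and 3.22 ± 0.253 CPM (SD, n = 4 each) was 0.65 ± 0.17, with an adjusted p of 0.00977 by limma. Without Control pCMV6.ODAM N the adjusted p was 0.0669, and without each of the other libraries the call stood. It passed in the 4 N libraries alone (0.0166) but not in the TGF (0.256), pCMV6 (0.147) or pCMV6.ODAM (0.0645) libraries alone.

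Slc25a39 (ENSRNOG00000020994, chromosome 10, 87362490 to 87367260) was the best covered of the 6, with 3672 reads. AmeloD libraries had 36.6, 41.8, 44.2 and 39.3 CPM, and Control libraries had 25.5, 23.8, 32.2 and 24.7 CPM. The lowest AmeloD value lay above the highest Control value, which came from Control pCMV6.ODAM TGF. Its log2 difference of 0.60 ± 0.11 had the smallest adjusted p of the members, 0.000722 by limma, from means of 40.5 ± 3.25 and 26.5 ± 3.82 CPM (SD, n = 4 each). Slc25a39 also passed in each subset of 4 libraries, with adjusted p = 0.000985 in the N libraries, 0.0449 in the TGF libraries, 0.00108 in the pCMV6 libraries and 0.0303 in the pCMV6.ODAM libraries. It was the only one of the 6 to pass in all 4 subsets.

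Slc35b1 (ENSRNOG00000004510, chromosome 10, 80327945 to 80335274) was at 22.05, 15.4, 23.6 and 16.7 CPM in AmeloD and 13.6, 11.5, 15.1 and 10.9 CPM in Control. The groups came close but did not overlap, since AmeloD pCMV6.ODAM N lay just above Control pCMV6.ODAM TGF. From 19.4 ± 4.02 and 12.8 ± 1.96 CPM (SD, n = 4 each) the difference was 0.56 ± 0.15, with an adjusted p of 0.0131 by limma. The call ended without AmeloD pCMV6 N (adjusted p = 0.104), AmeloD pCMV6.ODAM TGF (0.0754), Control pCMV6 TGF (0.0926) or Control pCMV6.ODAM N (0.0677), and with a prior variance that had no trend (0.0651). It passed in the N (0.0344) and pCMV6 (0.00351) libraries alone but not in the TGF (0.0579) or pCMV6.ODAM (0.155) libraries alone.

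Slc25a24 (ENSRNOG00000020470, chromosome 2, 196761274 to 196799231) went the other way from its family member Slc25a39. AmeloD libraries had 5.87, 5.34, 5.9991 and 6.10 CPM, within 1 CPM of each other, and Control libraries had 8.89, 9.41, 7.28 and 9.68 CPM. All 4 Control values lay above all 4 AmeloD values. The means of 5.83 ± 0.338 and 8.81 ± 1.07 CPM (SD, n = 4 each) gave a difference of -0.52 ± 0.15, with an adjusted p of 0.0209 by limma. It was lost without AmeloD pCMV6 N (adjusted p = 0.0699), AmeloD pCMV6.ODAM N (0.0684), Control pCMV6.ODAM N (0.115) or Control pCMV6 TGF (0.0900). It passed in the N (0.0330) and pCMV6 (0.0472) libraries alone but not in the TGF (0.365) or pCMV6.ODAM (0.272) libraries alone.

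Slc12a4 (ENSRNOG00000019651, chromosome 19, 33838419 to 33860331) was the least covered of the 6, with 116 reads in the 8 libraries. It had 0.378, 1.41, 0.366 and 0.370 CPM in AmeloD and 1.38, 1.63, 1.43 and 0.900 CPM in Control. AmeloD pCMV6.ODAM N stood at the level of the Control libraries, so the groups overlapped, although each AmeloD library was below its Control partner of the same plasmid and TGF label. The means were 0.631 ± 0.519 and 1.33 ± 0.308 CPM (SD, n = 4 each). Its difference of -0.55 ± 0.19 had an adjusted p of 0.0484 by limma, close to the threshold of 0.05. The call stood only without AmeloD pCMV6.ODAM N (0.0272), while leaving out any of the other 7 libraries gave adjusted p-values from 0.0549 to 0.185. It was also lost with DESeq2 on recovered reads (adjusted p = 0.106), with no filter on low values (0.165) and with a pseudocount of 2 CPM (0.0525). It did not pass in the N (0.308), TGF (0.181), pCMV6 (0.117) or pCMV6.ODAM (0.372) libraries alone.

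**Figure D2:**
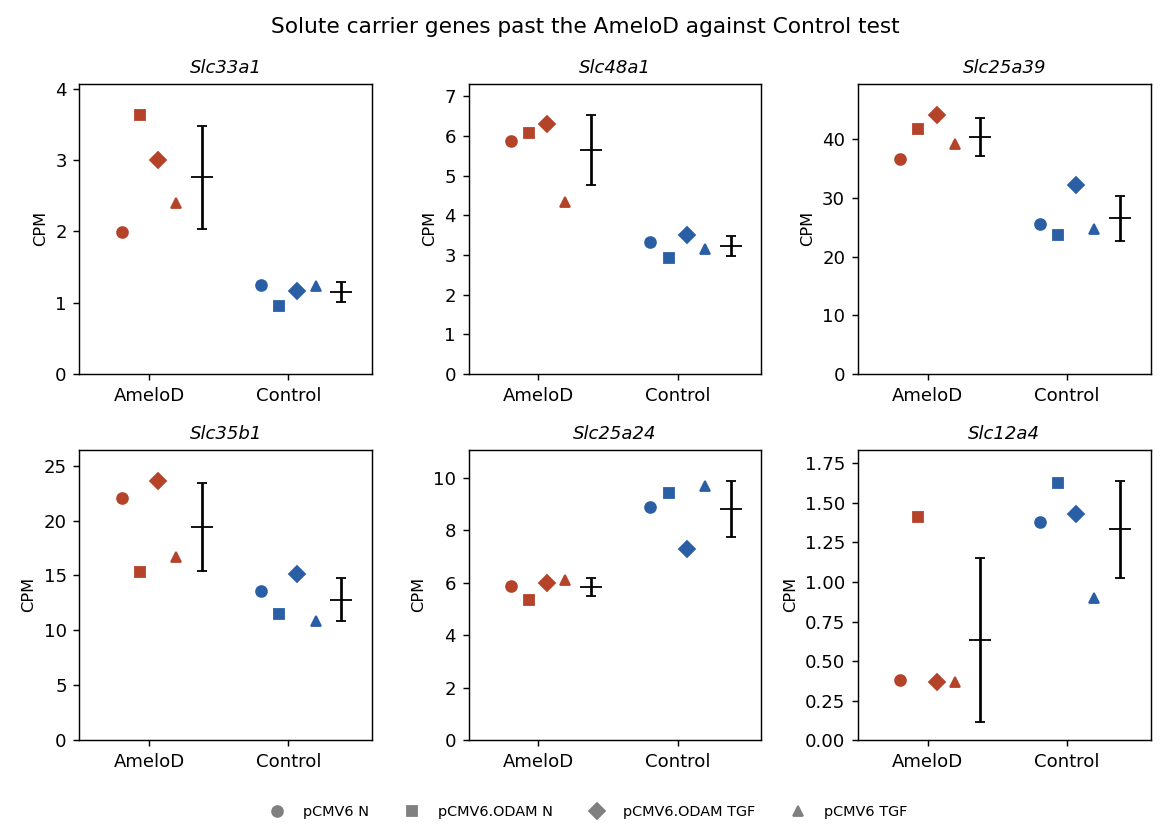
Level in CPM (vertical, from 0) of the 6 solute carrier genes past the genotype test, 1 panel per gene, with 1 marker per library and, beside each genotype, the mean and SD of its 4 libraries. The genotypes are apart in the panels of Slc33a1, Slc48a1, Slc25a39, Slc35b1 and Slc25a24, and in the panel of Slc12a4 the AmeloD pCMV6.ODAM N library at 1.41 CPM lies among the Control libraries.

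Counted without a test, 6 members had every AmeloD library above every Control library, and 1 had every AmeloD library below, beside 9.49% and 5.53% of all genes. Besides the 4 risers, the 6 were Slc25a22, a mitochondrial glutamate carrier, and Slc44a2, a choline transporter-like protein, and the 1 was Slc25a24. Slc44a2 had 4.26, 2.30, 2.19 and 2.03 CPM in AmeloD and 0.814, 1.96, 1.43 and 1.41 CPM in Control, and just missed the threshold (0.60 ± 0.21, adjusted p = 0.0532 by limma). Slc25a22 was at 2.41 ± 0.275 CPM and 1.71 ± 0.206 CPM (SD, n = 4 each), a difference of 0.33 ± 0.18 (adjusted p = 0.233 by limma). The zinc importer gene Slc39a6 was lower in AmeloD in 4 of 4 matched pairs and missed the main threshold (-0.49 ± 0.19, adjusted p = 0.0818), but passed after TMM scaling (0.0448) and after setting the libraries to the same median (0.0352), which makes the count 4 risen and 3 fallen. Slc44a2, Slc25a22 and Slc39a6 were named after their values were seen. With edgeR 6 members passed, beside 14% of all genes, and with DESeq2 5, beside 11.3%. The count of 6 was 3 without AmeloD pCMV6 N, 2 without Control pCMV6.ODAM N and 3 without Control pCMV6 TGF. In the 4 TGF libraries alone it was 1, and in the 4 pCMV6.ODAM libraries alone it was 2.

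Since AmeloD is a basic helix-loop-helix factor, a class that binds the 6-base E-box, the 250 bases before the start of the called genes are shown where the RefSeq promoter table for GRCr8 had 1 entry for them. That was so for 4 of the 6 called genes and 49 of the 66 members. Sequences run 5′ to 3′ on the strand of the gene, and capitals mark matches to the E-box CANNTG, whose reverse complement is the same pattern.
Slc33a1, chr2:150587417-150587666, minus strand: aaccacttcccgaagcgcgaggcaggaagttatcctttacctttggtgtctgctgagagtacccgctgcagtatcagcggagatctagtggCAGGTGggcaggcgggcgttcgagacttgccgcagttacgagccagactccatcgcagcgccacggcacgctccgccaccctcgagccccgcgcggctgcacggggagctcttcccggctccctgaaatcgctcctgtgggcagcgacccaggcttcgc
Slc25a39, chr10:87866974-87867223, minus strand: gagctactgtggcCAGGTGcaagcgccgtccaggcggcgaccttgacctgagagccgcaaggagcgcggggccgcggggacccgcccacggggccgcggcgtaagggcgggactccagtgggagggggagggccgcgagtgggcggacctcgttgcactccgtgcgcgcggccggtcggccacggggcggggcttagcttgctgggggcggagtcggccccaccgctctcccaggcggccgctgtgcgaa
Slc25a24, chr2:199449175-199449424, plus strand: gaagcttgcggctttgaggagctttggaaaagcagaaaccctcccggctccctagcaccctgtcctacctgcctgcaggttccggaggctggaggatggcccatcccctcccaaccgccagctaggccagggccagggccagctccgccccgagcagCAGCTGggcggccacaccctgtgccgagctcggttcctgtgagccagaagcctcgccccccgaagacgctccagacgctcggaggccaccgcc
Slc12a4, chr19:50770123-50770372, minus strand: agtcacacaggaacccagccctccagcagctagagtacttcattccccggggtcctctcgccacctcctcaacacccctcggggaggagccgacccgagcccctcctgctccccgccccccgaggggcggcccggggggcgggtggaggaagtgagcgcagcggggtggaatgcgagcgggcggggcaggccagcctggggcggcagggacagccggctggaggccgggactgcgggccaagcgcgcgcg
Slc33a1 and Slc25a39, which rose, each held 1 match with the letters CAGGTG, beginning 159 and 237 bases before the start. Slc25a24, which fell, held CAGCTG beginning 93 bases before the start, and Slc12a4 held no match. CANNTG occurred in 29 of the 49 members (59.2%) and in 65.5% of the 33469 promoters of the table, so most windows of this length hold it. The narrower CAGCTG, which is a subset of CANNTG and its own reverse complement, was in 5 of 49 members (10.2%) and 12% of all promoters. TGACNNNGC, the core of the antioxidant response element, was in 6 of 49 members (12.2%) and 10.1% of all promoters on either strand, with no match in the 4 windows shown. These matches describe letters and not binding.

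No amino acid transporter passed the genotype test. The count was 0 risen and 0 fallen of 10, beside 9.07% and 4.75% of all genes. Changes ran from -0.23 to 0.26, with a median of -0.01. Those shares of all genes stand beside the genotype counts of the other groups and lists below as well. Whether any group differed from all genes was not tested. Slc1a5, the main glutamine importer of many cells, had 50.1, 48.4, 83.3 and 49.2 CPM in AmeloD and 66.3, 73.4, 59.98 and 62.95 CPM in Control. In AmeloD, 3 libraries lay below all Control libraries, and AmeloD pCMV6.ODAM TGF lay above them all. The difference was -0.22 ± 0.13 (adjusted p = 0.306 by limma). Slc38a2, a sodium-coupled neutral amino acid transporter known to be induced when amino acids are scarce, had 28.95, 23.2, 17.8 and 22.5 CPM in AmeloD and 26.5, 20.5, 25.5 and 22.3 CPM in Control. Its groups overlapped throughout (-0.05 ± 0.13, adjusted p = 0.869).

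Slc7a1, the carrier of arginine and lysine, was lower in AmeloD in 4 of 4 matched pairs without passing the test. It had 8.33, 7.19, 7.61 and 5.91 CPM in AmeloD and 9.51, 7.92, 9.62 and 7.59 CPM in Control (-0.23 ± 0.15, adjusted p = 0.367 by limma). Slc3a2 encodes the heavy chain that brings Slc7a5, a carrier of large neutral amino acids, to the cell surface. Slc3a2 stood at 5.79 ± 0.830 CPM in AmeloD and 5.87 ± 0.347 CPM in Control (SD, n = 4 each), a difference of -0.02 ± 0.15. Slc7a5 stood at 1.33 ± 0.758 and 1.27 ± 0.451 CPM (SD, n = 4 each), a difference of 0.01 ± 0.22. The symbol of Slc7a6os only marks its place beside Slc7a6, it encodes no carrier, and without it the group has 9 genes and a median of 0.01.

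Slc7a6, a light chain that pairs with Slc3a2 and exchanges cationic for neutral amino acids, missed the level needed by 1 library and was singled out after its values were seen. It had 5, 2, 8 and 4 reads in AmeloD and 16, 22, 32 and 17 reads in Control. All AmeloD values lay below all Control values, at 0.473, 0.148, 0.585 and 0.370 CPM against 1.0014, 1.49, 2.08 and 0.956 CPM. Scaled to library totals, 19 against 87 reads gave a ratio of 0.288, with an exact 95% interval of 0.165 to 0.476 that covers counting error only. In a fit with no filter on low values its difference was -0.76 ± 0.21 and its adjusted p 0.0504 by limma, just above the threshold of 0.05. In that fit 4.34% of the 17287 genes tested passed, a set that includes the genes at or above the level. The share among all genes below the level was not counted. Of the 185 solute carrier genes below the level 1 passed. It was Slc6a14, a carrier of neutral and cationic amino acids, with 14 reads in AmeloD and 2 in Control (0.31 ± 0.08, adjusted p = 0.0311).

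**Figure D3:**
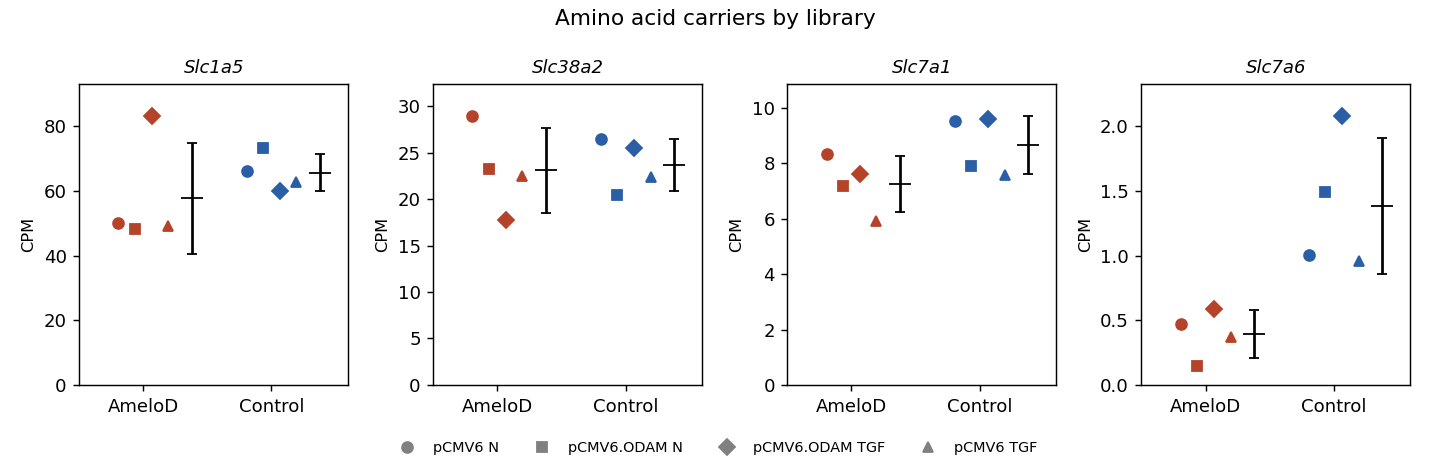
Level in CPM (vertical, from 0) of 4 amino acid carriers in each library, with the mean and SD of the 4 libraries beside each genotype. Slc1a5, Slc38a2 and Slc7a1 overlap or lie close between genotypes, with AmeloD pCMV6.ODAM TGF at 83.3 CPM for Slc1a5, and Slc7a6, which is below the level needed for membership, is lower in every AmeloD library.

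A list of genes that respond to amino acid shortage through the factor ATF4 was counted as well. Of 19 tested genes of this list 4 rose, 0 fell and 15 did not pass, with a median of 0.12. Of all genes 9.07% rose and 4.75% fell. The 4 were Asns, asparagine synthetase (0.58 ± 0.15, adjusted p = 0.0112 by limma), Gars1, glycyl-tRNA synthetase (0.54 ± 0.13, 0.00568), Chac1, which degrades glutathione (0.56 ± 0.18, 0.0351), and Cebpb, a transcription factor (0.58 ± 0.19, 0.0404). Genes that did not pass lay on both sides of 0. Examples are Shmt2 (-0.47 ± 0.16), Trib3 (-0.35 ± 0.17), Atf4 itself (-0.06 ± 0.14) and Phgdh (0.44 ± 0.17). Whether this list differed from the amino acid carriers or from all genes was not tested.

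No metal ion transporter passed the genotype test either, with 0 of 10, beside 13.8% of all genes. Changes ran from -0.49 to 0.39, with a median of 0.01. At an unadjusted p under 0.05 by limma there were 3 of the 10, beside 27% of all genes. Most genes of the SLC39 family bring zinc into the cytoplasm and most of the SLC30 family take it out, though not every member does. Slc39a1 had 4.16, 4.38, 6.44 and 5.64 CPM in AmeloD and 3.76, 4.74, 6.43 and 5.46 CPM in Control, nearly the same set in both genotypes (0.02 ± 0.16, adjusted p = 0.965 by limma). Slc30a9 had 2.93, 3.19, 4.32 and 4.34 CPM in AmeloD and 2.57, 3.59, 3.44 and 3.6005 CPM in Control (0.12 ± 0.17, adjusted p = 0.713). Slc39a10 had 5.11, 2.89, 3.44 and 3.23 CPM in AmeloD and 2.38, 2.44, 4.74 and 2.03 CPM in Control (0.29 ± 0.21, adjusted p = 0.412). Control pCMV6 N was low for Slc30a9 and Control pCMV6.ODAM TGF was high for Slc39a10, and the genotypes overlapped for both genes.

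Genes that bind, store or oxidise metals were counted in the same way. Of 13 tested genes for metal buffering and iron uptake 1 rose, 4 fell and 8 did not pass, with a median of 0.09. Of all genes 9.07% rose and 4.75% fell. Whether this list differed from the carriers was not tested. The metallothionein genes Mt1 and Mt2A, whose products bind zinc and copper, fell by 2.49 and 1.17 on the log2(CPM + 1) scale. Mt1 was at 14.2 ± 4.32 CPM in AmeloD and 82.7 ± 15.9 CPM in Control (SD, n = 4 each). Fth1, the ferritin heavy chain that stores iron, fell (-0.54 ± 0.11, adjusted p = 0.00183 by limma), as did Hmox1, the enzyme that opens heme (-0.80 ± 0.18, 0.00333). Heph, a copper-containing ferroxidase, rose (0.70 ± 0.18, 0.0108). Among the carriers, the heme transporter Slc48a1 was the only 1 of these metal and heme genes to pass. Slc11a2, the importer of ferrous iron, was at 1.46 ± 0.362 CPM in AmeloD and 0.925 ± 0.588 CPM in Control (SD, n = 4 each) and did not pass (0.39 ± 0.18, adjusted p = 0.165).

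The mitochondrial carriers held 1 riser, Slc25a39, 1 that fell, Slc25a24, and 13 that did not pass, with a median of -0.04 and a range from -0.52 to 0.60. Slc25a17, the family's carrier of cofactors in the peroxisome, was the steadiest of the members with at least 400 reads. It had 26.02, 23.8, 26.3 and 22.8 CPM in AmeloD and 23.8, 25.1, 25.5 and 23.3 CPM in Control, a coefficient of variation of 5.35% over the 8 libraries beside 5.46% from counting alone. The highest in that set were Slc48a1 with 32.2% beside 13.1% from counting, Slc25a13 with 28.8% beside 12.3%, and Slc35b1 with 28.6% beside 6.85%.

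Slc25a4 and Slc25a5 encode the exchangers of ADP and ATP across the inner membrane. Slc25a4 had 15.3, 15.6, 19.2 and 14.97 CPM in AmeloD and 16.8, 13.7, 19.6 and 18.1 CPM in Control, with overlapping groups (-0.06 ± 0.13, adjusted p = 0.834 by limma). Slc25a5 was at 3.34 ± 0.974 CPM in AmeloD and 4.41 ± 0.883 CPM in Control (SD, n = 4 each), a difference of -0.34 ± 0.18 (adjusted p = 0.236). The table also has a processed copy of Slc25a5 with 80 reads, so the 441 reads of Slc25a5 itself are uncertain where the counting divided shared reads. Slc25a20, the carnitine-acylcarnitine carrier of fatty acid oxidation, did not pass, at 2.89 ± 0.298 CPM and 1.92 ± 0.759 CPM (SD, n = 4 each, 0.45 ± 0.20, adjusted p = 0.135). Nor did Slc25a13, an aspartate and glutamate carrier, at 3.92 ± 1.56 CPM and 5.50 ± 0.442 CPM (SD, n = 4 each, -0.46 ± 0.20, adjusted p = 0.128). Its span, with 543 reads, holds LOC108350671 on the opposite strand (451 reads, -0.28 ± 0.17), so its reads too are uncertain where counting did not use strand.

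Of the 6 genes grouped as nucleotide sugar transporters, Slc35b1 rose and 5 did not pass, with a median of 0.06. Slc35a4 had 7.29, 8.60, 10.2 and 4.43 CPM in AmeloD and 8.51, 9.62, 5.72 and 7.99 CPM in Control, and the groups overlapped (-0.08 ± 0.18, adjusted p = 0.828 by limma). Slc35e4 had 1.14, 2.37, 1.76 and 2.77 CPM in AmeloD and 1.69, 1.56, 1.69 and 1.35 CPM in Control (0.20 ± 0.20, adjusted p = 0.584). With 198 reads it lies within Dusp18 on the opposite strand (182 reads, 0.20 ± 0.19), so its reads are uncertain where counting did not use strand. The carrier of UDP-galactose, Slc35a2, and that of GDP-fucose, Slc35c1, also did not pass, at -0.12 ± 0.19 and -0.11 ± 0.19. The group's summed level was 26.9 to 39.9 CPM in AmeloD and 23.6 to 26.98 CPM in Control, and Slc35b1 alone gave 15.4 to 23.6 CPM of the AmeloD sum.

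Enzymes that make the nucleotide sugars included genes that changed in each direction. Of 19 tested, 1 rose, 2 fell and 16 did not pass, with a median of 0.00, beside 9.07% risen and 4.75% fallen of all genes. Pmm1, a phosphomannomutase on the way to GDP-mannose, rose (0.62 ± 0.13, adjusted p = 0.00142 by limma). Uxs1, which makes UDP-xylose, fell (-0.83 ± 0.13, 6.30e-05), from 28.3 ± 6.99 CPM in Control to 15.2 ± 2.26 CPM in AmeloD (SD, n = 4 each). Pgm1, a phosphoglucomutase, fell as well (-0.84 ± 0.19, 0.00260).

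Among the 9 genes grouped as inorganic ion transporters, Slc12a4 fell and 8 did not pass, with a median of -0.06. Slc12a2, the sodium-potassium-chloride cotransporter that brings chloride into epithelial cells, had 6.62, 5.49, 6.07 and 8.13 CPM in AmeloD and 7.32, 7.11, 5.72 and 4.78 CPM in Control. Its groups overlapped and it did not pass (0.07 ± 0.17, adjusted p = 0.840 by limma), while its family member Slc12a4 was at -0.55. Whether the changes of Slc12a4 and Slc12a2 differ was not tested. Slc4a9, an anion exchanger, had 2.46, 1.33, 1.83 and 2.77 CPM in AmeloD and 2.13, 1.35, 3.90 and 1.91 CPM in Control (-0.07 ± 0.21, adjusted p = 0.879). Slc4a1ap, an adaptor protein named after an anion exchanger and no carrier itself, had 4.92, 4.89, 3.29 and 3.97 CPM in AmeloD and 3.0042, 4.74, 3.31 and 2.36 CPM in Control (0.29 ± 0.17, adjusted p = 0.303).

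Few reads fell on the carriers known from enamel formation. Of 21 such genes listed, 5 were tested, with 0 risen and 0 fallen and a median of -0.06, and 9 had 0 reads in every library. The 9 were Slc4a4, Slc8a3, Slc24a4, Slc26a1, Slc26a3, Slc26a4, Slc26a7, Slc34a2 and Slc39a2. Whether the table's models of these genes and of the ameloblast markers reach the 3′ ends that the reads come from was not tested, so 0 reads does not show that a gene was silent. Among the 5, the phosphate carriers Slc20a1 and Slc20a2 stood at 1.53 ± 0.462 against 1.62 ± 0.4996 CPM and at 1.07 ± 0.252 against 1.45 ± 0.284 CPM (AmeloD against Control, SD, n = 4 each). Their differences were -0.05 ± 0.20 and -0.25 ± 0.18. Below the level, Slc4a2 had 62 reads over the 8 libraries, Slc8a1 70, Slc10a7 44 and Slc26a6 23. Slc8a1, a sodium-calcium exchanger, had 19 reads in AmeloD and 51 in Control, and none of the genes below the level other than Slc6a14 passed in the fit without a filter.

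The sodium pump sets the gradient that many of these carriers use. Atp1b1, a gene of its beta subunit, fell (-0.83 ± 0.18, adjusted p = 0.00217 by limma). It had few reads, 30 in AmeloD and 125 in Control.

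The 16 transporters of other organic solutes included 2 risers, Slc33a1 and Slc48a1, and 14 that did not pass, with a median of 0.07. The group's summed level was 57.2 to 58.9 CPM in the AmeloD libraries and 40.3 to 57.1 CPM in the Control libraries. Slc44a1, a choline transporter, had 17.03, 18.2, 13.5 and 18.1 CPM in AmeloD and 12.4, 10.9, 16.2 and 12.2 CPM in Control. In AmeloD, 3 libraries lay above all Control libraries and pCMV6.ODAM TGF lay below its matched Control library, and the gene did not pass (0.35 ± 0.15, adjusted p = 0.114 by limma). Slc6a8, the creatine transporter, had 12.6, 9.64, 16.2 and 14.2 CPM in AmeloD and 8.89, 9.82, 16.1 and 8.27 CPM in Control (0.29 ± 0.16, adjusted p = 0.250).

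Slc16a1, a carrier of lactate and other monocarboxylates, was at 1.33 ± 0.496 CPM in AmeloD and 1.36 ± 0.239 CPM in Control (SD, n = 4 each), a difference of -0.03 ± 0.19. Its chaperone Bsg, basigin, was the only 1 of 15 tested carriers and subunits without an Slc symbol to change, while 14 did not pass. Bsg had 36.1, 36.6, 46.5 and 43.4 CPM in AmeloD and 61.8, 53.5, 54.8 and 52.7 CPM in Control. It fell in all 4 matched pairs without overlap of the groups (-0.45 ± 0.11, adjusted p = 0.00752 by limma).

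The SE of a member ran from 0.11 to 0.23. Of the 60 members that did not pass the genotype test, 59 had a 95% interval within 1 unit of 0 on the log2(CPM + 1) scale. The exception was Slc44a2 with an upper bound of 1.03. Only 36 of the 60 had an interval within 0.58 units (1.5-fold on that scale). The called members themselves changed by less than 1 unit, so the wider bound allows changes as large as theirs. For members near 1 CPM such an interval allows a larger fold change in CPM itself. Interactions and the spread between single libraries are not separate in this design, since no combination was replicated.

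The comparison of TGF with N libraries asked which carriers respond to the condition labelled TGF. By limma 0 of the 66 members passed, beside 1.81% of all genes, and 0 passed with edgeR (1.53% of all genes did) or DESeq2 (1.59%). At an unadjusted p under 0.05 there were 4 members, 6.06%, beside 11.9% of all genes. These were Slc39a13, a zinc transporter of intracellular membranes, Slc39a1, Slc25a46, a protein of the outer mitochondrial membrane, and Slc6a8. Slc39a13 had 0.852 and 0.667 CPM in the AmeloD N libraries and 2.56 and 2.03 CPM in the AmeloD TGF libraries, and 1.69 and 2.10 CPM in the Control N libraries and 2.92 and 2.25 CPM in the Control TGF libraries. Its values were higher with TGF in 4 of 4 matched pairs, and it had the smallest adjusted p of the members (0.60 ± 0.19, adjusted p = 0.123). With 218 reads it overlaps Psmc3, a proteasome subunit gene on the opposite strand with 17786 reads, so its reads are uncertain where counting did not use strand. Psmc3 itself was at 0.01 ± 0.10 between TGF and N (adjusted p = 0.982). Slc39a1 was higher with TGF in the 4 pairs as well (0.41 ± 0.16, adjusted p = 0.237), and Slc25a46 was at -0.53 ± 0.19 (adjusted p = 0.213). All 66 members had 95% intervals within 1 unit of 0 on the log2(CPM + 1) scale, and 40 of them within 0.58 units.

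The comparison of pCMV6.ODAM with pCMV6 asked the same of the Odam plasmid. By limma 0 members passed, beside 0% of all genes, with 0 by edgeR (0% of all genes) and by DESeq2 (0.0146%). At an unadjusted p under 0.05 there were 2 members (3.03%), beside 6.63% of all genes. Among them was the iron importer gene Slc11a2 (0.43 ± 0.18, adjusted p = 0.710). It had 1.61 and 0.924 CPM in the AmeloD pCMV6 libraries and 1.71 and 1.61 CPM in the AmeloD pCMV6.ODAM libraries, and 0.751 and 0.281 CPM in the Control pCMV6 libraries and 1.69 and 0.9748 CPM in the Control pCMV6.ODAM libraries (N before TGF). It was higher with pCMV6.ODAM in 4 of 4 matched pairs, and the plasmid groups overlapped across genotypes.

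**Figure D4:**
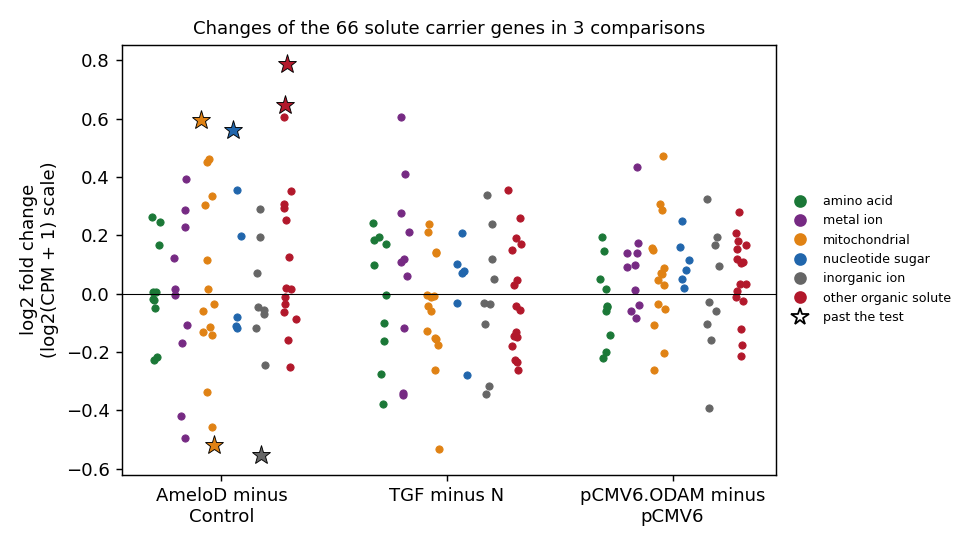
Log2 differences on the log2(CPM + 1) scale (vertical) of the 66 solute carrier genes in the 3 comparisons, AmeloD minus Control, TGF minus N and pCMV6.ODAM minus pCMV6, 1 point per gene coloured by substrate group, with stars for genes past the limma test at an adjusted p under 0.05. The 6 stars are all under AmeloD minus Control, and the other comparisons have 0.

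Whether a carrier's response to 1 factor depended on another was tested by adding 1 interaction at a time. By limma, and by edgeR and DESeq2, 0 members passed any of the 3. For genotype by TGF, 3 members had an unadjusted p under 0.05 (4.12% of all genes did, and 0.0146% passed the test). They were Slc1a5 (0.55), Slc7a5 (0.95) and Slc39a3, a zinc importer (0.78). For genotype by plasmid there were 2, Slc38a7 (-0.83) and Slc35a4 (0.76), beside 4.5% of all genes, of which 0% passed. For plasmid by TGF there were 5, beside 7.36% of all genes, of which 0% passed. They were Slc4a7, a sodium-bicarbonate cotransporter (0.91), Slc39a10 (0.81), Slc25a13 (0.85), Slc6a8 (0.64) and Slc35b1, which had the smallest adjusted p (0.82 ± 0.24, adjusted p = 0.578). These 5 values are on the scale as deposited, where the median of this interaction over all genes was 0.16. With TMM scaling that median was -0.0038.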

How the data were processed

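The 8 libraries were made with the QIAseq UPX 3′ kit and sequenced on a DNBSEQ-G400, per the labels' protocols. Reads were trimmed with Trim Galore 0.6.7, Trimmomatic 0.39 and cutadapt 3.7, aligned to mRatBN7.2 with STAR 2.7.10a and counted with featureCounts 2.0.1, and the authors used DESeq2 1.20.0, per the submitters' processing notes. Whether molecular identifiers, strand or reads that map to several genes entered the counting is not stated in the labels. The authors deposited 1 table of CPM per gene and library, scaled to library totals larger than the table's own reads. Divided by the CPM of 1 read, 100% of the deposited values were within 0.01 of a whole number of reads.

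Changes on the log2(CPM + 1) scale were tested in R 4.3.3 with limma 3.58.1, using the eBayes trend, additive terms for genotype, plasmid and TGF label over all 8 libraries, two-sided. The 6849 genes that reached 1 CPM in at least 4 libraries entered the Benjamini-Hochberg adjustment, and an adjusted p under 0.05 was called. Interactions were added 1 at a time. The p-values rest on the residual of the fit, which holds interactions as well as the spread between single libraries, which may be technical. Its variance was moderated across genes, with 24.18 residual and prior degrees of freedom in the additive fit. No spread between replicates enters them. Alternatives were edgeR 4.0.16 and DESeq2 1.42.0 on the recovered reads (edgeR called 957 of the 6849 genes between genotypes), other pseudocounts, filters and scalings, subsets of 4 libraries, matched pairs as a block and leaving out each library. The fits were also run on simulated reads with genotype or genotype by TGF effects and the same spread setting for every gene. No result given here rests on that run. The exact intervals given for ratios of reads cover counting error only.

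Genes named are members past a test with the same sign in 4 of 4 matched pairs, the 3 members of each substrate group with the highest mean CPM, enamel carriers with at least 20 reads, up to 4 genes of each partner list per direction, and family members called in opposite directions, plus those said to be chosen after their values were seen. Members with an unadjusted p under 0.05 outside the genotype comparison, the partners Slc3a2, Slc7a5, Slc16a1 and Slc11a2, and Slc25a5, Slc25a13, Slc25a20, Slc35a2 and Slc35c1 were also chosen after their values were seen. A few genes that enter the counts are not reported here by name. The members and all lists were chosen with earlier results of these data known. Of 66 members, 49 matched 1 entry of the RefSeq promoter table (GRCr8), 3 matched more and 14 none.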

Additional observations from a re-analysis of the deposited data

Results flagged for a closer look

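Within each genotype, the 4 libraries of 23 named members were checked for a library far from the other 3 by Dixon's criterion, its gap to the nearest value divided by the range of the group. Of 46 groups 5 had such a library, and chance alone marks about 1 in 20 groups, while the libraries of a group also differ in plasmid and TGF label. Among AmeloD libraries, pCMV6.ODAM N was high for the potassium-chloride cotransporter Slc12a4 at 1.41 CPM, with the others at 0.366 to 0.378 CPM. AmeloD pCMV6.ODAM TGF was high for the glutamine carrier Slc1a5 at 83.3 CPM, with the others at 48.4 to 50.1 CPM, and for the ADP and ATP exchanger Slc25a4 at 19.2 CPM, with the others at 14.97 to 15.6 CPM. Among Control libraries, pCMV6 N was low for the zinc carrier Slc30a9 at 2.57 CPM, with the others at 3.44 to 3.6005 CPM, and pCMV6.ODAM TGF was high for the zinc importer Slc39a10 at 4.74 CPM, with the others at 2.03 to 2.44 CPM. In no case was the cause tested.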

How the results depend on the processing

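The count of members past the genotype test, 6, was 1 in the 4 TGF libraries alone, 2 in the 4 pCMV6.ODAM libraries alone and 2 to 7 when 1 library was left out, all fits with fewer libraries. It was 4 to 8 under the other alternatives. The counts of 0 for TGF, plasmid and the 3 interactions were 0 under every alternative run. Of the genotype changes of the 23 named members under an alternative, 416 kept their direction and side of the threshold, 33 no longer passed, 8 newly passed and 43 changed sign. The sign changes were all in members that did not pass the test, and none of the 6 called members changed direction. In the pCMV6.ODAM libraries the changed values were -0.12 for Slc12a2, 0.33 for Slc20a1, -0.012 for Slc25a17, 0.076 for Slc25a4, 0.30 for Slc35a4, -0.047 for Slc39a1, -0.096 for Slc39a10 and -0.0040 for Slc6a8. In the N libraries they were -0.22 for Slc12a2, 0.024 for Slc25a4, 0.15 for Slc38a2 and 0.067 for Slc4a9. In the TGF libraries they were 0.058 for Slc1a5, 0.050 for Slc20a1 and 0.0084 for Slc35a4, and in the pCMV6 libraries 0.066 for Slc38a2 and 0.26 for Slc4a9. Slc25a17 and Slc39a1 turned to -0.050 and -0.043 with TMM, -0.052 and -0.054 with edgeR, -0.055 and -0.057 with DESeq2, and -0.057 and -0.058 with libraries set to the same median, where Slc12a2 was at -0.0029. When 1 library was left out the values ran from -0.083 to 0.18 for Slc12a2, -0.22 to 0.16 for Slc20a1, -0.033 to 0.063 for Slc25a17, -0.16 to 0.036 for Slc25a4, -0.30 to 0.095 for Slc35a4, -0.14 to 0.098 for Slc38a2, -0.012 to 0.046 for Slc39a1 and -0.26 to 0.19 for Slc4a9. The cause was not tested. The median change of all genes between genotypes was 0.05 as deposited and -0.03 with the libraries set to the same median. For the members with the fewest reads, changes under about 1 unit on the log2(CPM + 1) scale can be missed at this depth. With matched pairs (libraries that share the other factors) as a replicate block, a fit added after seeing the data, 6 members passed between genotypes (4 rose and 2 fell), the 6 called members among them, and 0 passed for TGF and for plasmid. The labels give no replicate numbers.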

Other observations

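Among solute carrier genes below the level needed, 43 had at least 40 reads in the 8 libraries together. Some of these, singled out after their values were seen, had unequal reads between genotypes. Slc38a1, a sodium-coupled carrier of glutamine, had 3, 0, 5 and 1 reads in AmeloD and 8, 17, 8 and 3 reads in Control, a ratio of 0.329 scaled to library totals (exact 95% interval 0.139 to 0.696, counting error only). Slc66a1, an exporter of cationic amino acids from lysosomes, had 11 reads in AmeloD and 37 in Control (ratio 0.391, interval 0.180 to 0.784). Slc22a23, of the organic ion transporter family, had 37 reads in AmeloD and 17 in Control (ratio 2.87, interval 1.57 to 5.43). In the fit with no filter on low values these 3 genes did not pass, with adjusted p-values of 0.224, 0.204 and 0.0826 by limma.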
